A study of Mus musculus with 18 samples.

Results

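The regions described here are 298 exon bins, in 153 genes, that took a larger share of their gene's reads in HSA-LR mice than in WT mice in both the gastrocnemius and the quadriceps muscle. They were chosen by measured values from 177302 bins of 7527 genes. An exon bin is a stretch of a gene cut wherever the exon boundaries of its annotated transcripts differ, and its usage is its read count as a percentage of the summed counts of all bins of that gene in the same library. A bin was kept when, in each muscle, mean HSA-LR usage was at least 2 times mean WT usage, every HSA-LR value exceeded every WT value and the mean HSA-LR count was at least 20. Genes needed at least 2 bins and a sum of at least 500 in all 18 libraries. The comparison of HSA-LR with WT mice is therefore given as a description, with no test, while values of treated mice did not enter the choice beyond the limit on the gene's sum.

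The study compared muscle RNA of 3 WT mice and 3 HSA-LR mice labelled untreated (the protocol names saline as the control injection) and 3 HSA-LR mice that received Pip6a-PMO intravenously, all FVB and aged 20 weeks. HSA-LR mice carry a human skeletal actin transgene with a long CTG repeat, and because the transgene is expressed in skeletal muscle, other tissues are not modelled. Pip6a-PMO is a morpholino antisense oligonucleotide against the CUG repeat joined to a cell-penetrating peptide, and the dose given to the sequenced mice was not stated in the labels. Gastrocnemius and quadriceps came from the same 9 mice, so the 2 muscles are not independent animals.

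In myotonic dystrophy, RNA with expanded CUG repeats collects in nuclear foci and holds muscleblind-like (MBNL) proteins there. MBNL proteins bind YGCY motifs (Y is a pyrimidine) in pre-mRNA and switch exons between fetal and adult patterns during muscle maturation. When they bind inside or upstream of an exon they generally favour its skipping, and such exons are included more when MBNL is held by the repeat. Gained bins can also be first or last exons, retained introns or long runs of ordinary exons, for which usage follows where transcripts start, end or are covered by reads.

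The sequences of 10 gained bins that the results below turn on are shown. Of these, 9 are exons or parts of exons that returned towards the WT level in treated mice. The other, an exon of Kmt2c, also fell but kept 21 to 33 reads in treated gastrocnemius, against 0 to 2 in WT mice. In quadriceps its fall was partial too, as was that of Clasp1 bin 60 among the 9. Each sequence is the transcript strand of a coding bin on GRCm38, 5′ to 3′, taken from GENCODE M21 transcripts, with every YGCY match (Y is C or T, overlaps included, transcript strand only) in capitals. Intron flanks were not analysed here.

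Clcn1 bin 10 (chr6:42293444-42293522, plus strand, 79 bases): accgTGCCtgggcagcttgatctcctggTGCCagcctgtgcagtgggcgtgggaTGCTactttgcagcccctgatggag
Mbnl1 bin 38 (chr3:60614683-60614736, plus strand, 54 bases): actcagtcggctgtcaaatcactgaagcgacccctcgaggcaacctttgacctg
Tnnt3 bin 10 (chr7:142502740-142502757, plus strand, 18 bases): aacaatacgaagaggaag
Tnnt3 bin 18 (chr7:142507750-142507769, plus strand, 20 bases): aTGCTgtCGCCgaggaggag
Tnnt3 bin 19 (chr7:142507770-142507788, plus strand, 19 bases): cgggaggaggacgaggaag
Nfix bin 18 (chr8:84723728-84723850, minus strand, 123 bases): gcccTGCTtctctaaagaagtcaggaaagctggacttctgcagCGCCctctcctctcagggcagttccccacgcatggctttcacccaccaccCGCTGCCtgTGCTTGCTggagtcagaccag
Clasp1 bin 60 (chr1:118541675-118541698, plus strand, 24 bases): ctgttaggagaCGCCaggagcaag
Pdlim3 bin 7 (chr8:45908469-45908656, plus strand, 188 bases): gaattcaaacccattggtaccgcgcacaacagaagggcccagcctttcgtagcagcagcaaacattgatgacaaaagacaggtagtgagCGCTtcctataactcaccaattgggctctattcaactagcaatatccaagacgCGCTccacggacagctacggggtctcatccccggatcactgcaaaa
Scamp2 bin 9 (chr9:57578274-57578402, plus strand, 129 bases): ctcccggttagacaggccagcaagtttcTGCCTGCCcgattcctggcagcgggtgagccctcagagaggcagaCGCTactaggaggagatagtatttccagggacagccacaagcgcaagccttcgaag
Kmt2c bin 39 (chr5:25324089-25324221, minus strand, 133 bases): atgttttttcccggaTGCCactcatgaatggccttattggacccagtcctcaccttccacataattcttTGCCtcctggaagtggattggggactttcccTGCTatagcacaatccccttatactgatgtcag

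Bins 18 and 19 of Tnnt3 lie next to each other and are 2 parts of 1 short exon. The Mbnl1 exon and 2 of the 3 Tnnt3 bins hold no YGCY, whereas the Nfix exon holds 6 and the Clcn1, Scamp2 and Kmt2c exons hold 3 each. Over the 54 gained bins that are whole internal exons, 74.1% held at least 1 YGCY and the density was 1.89 per 100 bases, beside 70.2% and 1.49 per 100 bases over all 5629 such bins of the eligible genes. Over all 212 gained bins with a position on GRCm38, of every kind, the density was 1.49 per 100 bases. It was 1.51 over the 97622 bins of eligible genes with a position. At least 1 match was held by 77.4% and 69.9% of these 2 sets. Presence or absence of a match in these bases does not describe the introns, where MBNL sites also lie.

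Libraries held 98916844 to 143135976 bin counts. WT mouse 2 is labelled female and WT mouse 3 male, but summed Y-linked CPM (counts relative to library size) of 4 genes was 154 and 181.5 in the 2 libraries of WT mouse 2 and 1.15 and 1.43 in those of WT mouse 3, so these 2 mice go against their labels and counts are given without each of them where they moved. Treated gastrocnemius mouse 3 had the lowest 5′ against 3′ coverage of genes, at a log2 ratio of -0.68 where the other 17 libraries had -0.38 to -0.17. Skeletal muscle markers made up 109500 to 160800 CPM in every library. Summed macrophage markers (5 genes) were 54.3 to 78.6 CPM in HSA-LR mice and 24.2 to 48.8 CPM in WT and treated mice, and their part in the usage values was not tested.

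The rule picked 1364 bins in gastrocnemius alone (0.769% of the eligible bins), 479 in quadriceps alone (0.270%) and 298 in both muscles (0.168%). The members made up 21.8% of the first set and 62.2% of the second. By the same rule in the other direction, 179 bins in 103 genes were lost. In gastrocnemius the median ratio of HSA-LR to WT usage was 3.10, against 1.01 over the 128451 bins with a mean HSA-LR count of at least 20, and in quadriceps it was 2.84 against 1.01 over 127101 bins. Most members were minor parts of their genes, with a median HSA-LR usage in quadriceps of 0.724% and a median gain of 0.548 percentage points in gastrocnemius and 0.497 points in quadriceps. Ratios lay under 3 for 138 members in gastrocnemius and 174 in quadriceps, and reached at least 10 for 29 members of 12 genes in gastrocnemius. Members just inside the threshold were Speg bin 36, Mbp bin 8 and Fhod1 bin 6, whose smaller ratio of the 2 muscles was 2.001 to 2.005, and Asph bin 13, Stim1 bin 22 and Lrrfip1 bin 31 lay just outside at 1.992 to 1.9997. The levels of the host genes had a median ratio of HSA-LR to WT mice of 1.04 in gastrocnemius and 1.05 in quadriceps.

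Of the 298 members, 212 in 125 genes could be placed on GRCm38, and 86 in 28 genes have another gene version in the annotation and are named by symbol and bin number. Among the placed members, 54 (25.5%) were whole internal exons that other transcripts skip, a kind that made up 5.77% of the 97622 placed bins of eligible genes. First exons were 17.5% of the members against 9.22%, last exons 19.8% against 13.4% and retained introns 9.43% against 3.16%. Bins present in every transcript that spans them were 22.6% of the members against 61.3%, and 37 of these 48 belonged to Kmt2c (23) and Asph (14). The whole internal exons had a median length of 89.5 bases, against 103 over all such bins, and 55.6% were a multiple of 3 bases long, against 46.0%. These shares are descriptions of a list chosen on usage, and neighbouring bins of a gene are not independent.

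**Figure D1:**
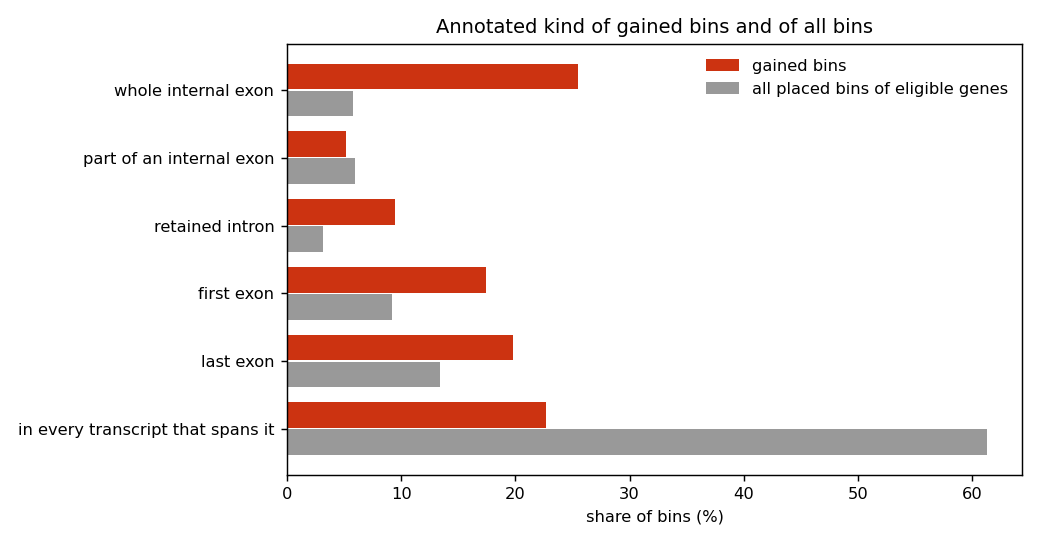
Share of bins (%, x axis) of each annotated kind (y axis) among the 212 placed gained bins and among all 97622 placed bins of eligible genes. Whole internal exons made up 25.5% of the gained bins and 5.77% of all bins, and bins in every transcript 22.6% and 61.3%.

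In a list of 59 genes with exons known to be regulated by MBNL, 56 were eligible and 13 held a gained bin (23.2%), against 2.03% of all eligible genes. The list was chosen with earlier results of these data known, so these shares are a description. The eligible genes were not matched to it for read depth or number of bins. Those genes were Clcn1, Mbnl1, Mbnl2, Ldb3, Bin1, Tnnt3, Nfix, Pdlim3, Clasp1, Camk2b, Camk2d, Neb and Slc8a3, with 24 members between them. Of these members 19 were lower in treated than in HSA-LR gastrocnemius at an adjusted P under 0.1 (edgeR diffSpliceDGE, Benjamini-Hochberg over all bins tested) and 15 in quadriceps. Their median return was 95.2% in gastrocnemius and 87.6% in quadriceps, where return is the fall from the HSA-LR mean to the treated value as a percentage of the gap between the HSA-LR and WT means.

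Clcn1 encodes the muscle chloride channel, and its gained exon has a length that is not a multiple of 3. Its usage in gastrocnemius was 0.0646%, 0.131% and 0.142% in the 3 WT mice, 1.18%, 1.35% and 1.04% in HSA-LR mice and 0.165%, 0.145% and 0.149% in treated mice. Treated values lay far below the HSA-LR mice and just above the WT range. In quadriceps usage was 0.0898% ± 0.00446 (SD, n = 3) in WT, 1.14% ± 0.0563 in HSA-LR and 0.165% ± 0.0475 in treated mice. The bin fell by 2.96 on the log2 scale relative to its gene in treated against HSA-LR gastrocnemius (adjusted P = 9.15e-28, edgeR) and by 2.82 in quadriceps (adjusted P = 4.51e-23, edgeR). At 214 to 339 reads in each HSA-LR library and 27 to 65 in each WT library, counting error was small beside these gaps.

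The MBNL genes themselves were among the hosts. Usage of the 54-base Mbnl1 exon in gastrocnemius was 0.116%, 0.126% and 0.102% in WT, 0.582%, 0.858% and 0.813% in HSA-LR and 0.135%, 0.194% and 0.0969% in treated mice. The treated and WT values overlapped, and the fall from HSA-LR mice was 2.35 on the log2 scale in gastrocnemius (adjusted P = 1.04e-08, edgeR) and 2.21 in quadriceps (adjusted P = 5.09e-13, edgeR). Mbnl2 bin 6 went from 0.259% ± 0.00847 in WT to 1.19% ± 0.212 in HSA-LR and 0.403% ± 0.0244 in treated gastrocnemius (SD, n = 3), where the change relative to the gene did not pass the test (log2 -1.54, adjusted P = 0.18, edgeR), while in quadriceps it fell by 1.72 (adjusted P = 0.000192, edgeR). Mbnl2 bin 8 had returns of 89.2% and 79.2% in the 2 muscles and passed the test in neither. Celf2, an RNA-binding protein that acts against MBNL on many exons, held 5 members, and its last-exon bin 2 went from 3.05% to 6.36% and back to 2.73% in quadriceps (log2 -1.23, adjusted P = 8.61e-05, edgeR).

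Tnnt3 encodes fast troponin T, whose variable exons mark muscle maturation, and held 8 members among bins 10 to 21. Bin 19 rose from 0.0222%, 0.0247% and 0.0286% in WT gastrocnemius to 2.58%, 2.70% and 2.62% in HSA-LR mice, a ratio of 104.8, the highest of any member in that muscle. In treated gastrocnemius it was at 0.0672%, 0.0407% and 0.0204%, on both sides of the WT values and far below HSA-LR mice. In treated quadriceps it was at 0.106%, 0.0590% and 0.0467%, each above the WT mice (0.0202% to 0.0254%) and far below HSA-LR mice (1.73% to 2.64%). Against WT quadriceps this was higher by 1.65 on the log2 scale (adjusted P = 9.46e-07, edgeR), and its neighbour bin 18 by 1.55 (adjusted P = 7.41e-06, edgeR). Summed over the 8 Tnnt3 bins, usage was 1.34% ± 0.530 in WT, 10.7% ± 0.186 in HSA-LR and 1.497% ± 0.787 in treated gastrocnemius, and 1.37% ± 0.369, 8.63% ± 1.22 and 2.47% ± 0.330 in quadriceps (SD, n = 3). All 8 bins lay between the WT and HSA-LR ranges in treated quadriceps, with a median return of 66.9% against 93.4% in gastrocnemius, a difference between muscles that passed the test for none of them.

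Among Z-disc and T-tubule genes, Ldb3, a Z-disc protein, had usage of bin 7 of 0.0752%, 0.0941% and 0.107% in WT, 1.53%, 1.71% and 1.46% in HSA-LR and 0.234%, 0.166% and 0.104% in treated gastrocnemius. It fell by 3.22 on the log2 scale in gastrocnemius and by 3.11 in quadriceps (adjusted P = 8.92e-26 and 1.8e-29, edgeR), yet in quadriceps it was higher than in WT mice by 1.51 (adjusted P = 1.45e-06, edgeR). Bin1 shapes T-tubule membranes, and its bin 7 went from 0.0547% ± 0.00983 in WT to 0.531% ± 0.0475 in HSA-LR and 0.0600% ± 0.0119 in treated quadriceps (SD, n = 3), a return of 98.9%. Bin 16 of the same gene, at 1.57%, 3.19% and 1.94%, returned by 77.2% and did not pass the test there (adjusted P = 0.373, edgeR). Pdlim3, also of the Z-disc, had treated values on both sides of the WT mean, with 0.159%, 0.121% and 0.0806% in treated against 0.136%, 0.171% and 0.164% in WT and 0.641%, 0.628% and 0.651% in HSA-LR gastrocnemius. Neb encodes nebulin, which is built of near-identical repeats, so its reads may be split between copies, and bins 10 and 22 passed the test in neither muscle, with returns of 96.9% and 49.0% in gastrocnemius.

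Kinases, adaptors and regulators gave the other members of the list. The gained bin of Camk2b, a subunit of calcium/calmodulin-dependent kinase, is the 3-base part of an internal exon (chr11:5982759-5982761, minus strand) and went from 0.107%, 0.217% and 0.164% in WT to 1.71%, 1.78% and 2.01% in HSA-LR and 0.454%, 0.258% and 0.254% in treated gastrocnemius. Every treated value exceeded every WT value there, and the bin fell by 2.48 from HSA-LR mice (adjusted P = 1.11e-28, edgeR). It also passed the test against WT mice in gastrocnemius (log2 1.02, adjusted P = 0.00905, edgeR), but without treated mouse 1 or without WT mouse 1 the call was lost there. In quadriceps the Camk2b bin was called above WT mice too (adjusted P under 0.1, edgeR). Nfix, a transcription factor of fetal muscle, used its 123-base exon at 1.24% ± 0.0645 in WT, 3.54% ± 0.156 in HSA-LR and 1.41% ± 0.206 in treated gastrocnemius (SD, n = 3; log2 -1.31, adjusted P = 1.21e-08, edgeR). Clasp1, a microtubule-binding protein, passed in gastrocnemius (return 87.5%, adjusted P = 0.00085, edgeR) and not in quadriceps (return 63.8%, adjusted P = 1, edgeR). Slc8a3, a sodium/calcium exchanger, likewise passed in gastrocnemius (log2 -1.51, adjusted P = 9.29e-09, edgeR) and not in quadriceps (log2 -1.20, adjusted P = 0.256, edgeR).

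**Figure D2:**
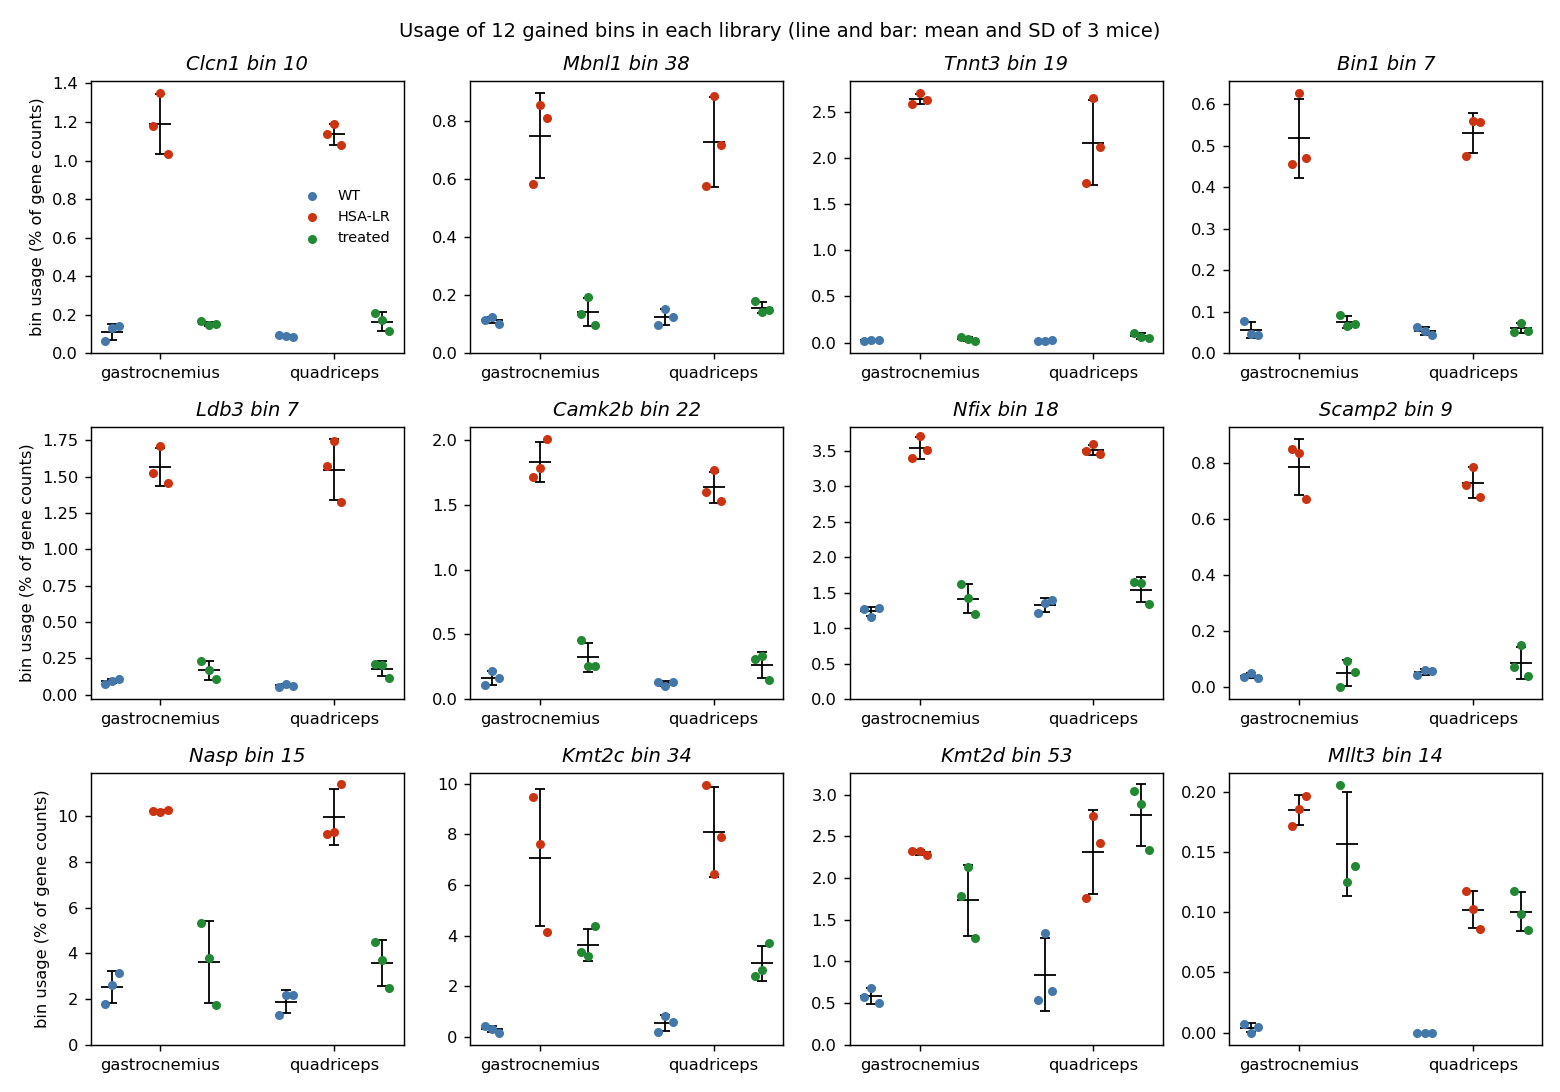
Usage (% of gene counts, linear y axis) of 12 gained bins in each library, by muscle (x axis) and by WT, HSA-LR and treated mice (colours), with a line and bar for the mean and SD of 3 mice. Treated points sit near the WT points for most panels and between the groups for Kmt2c bin 34. They lie above the HSA-LR mean for Kmt2d bin 53 in quadriceps, and nearer to the HSA-LR than to the WT mean for Mllt3 bin 14.

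Outside that list, members of several other genes had large gains in points. Nasp, a histone chaperone, used a 975-base internal coding exon at 1.78%, 2.63% and 3.15% in WT and 10.2%, 10.2% and 10.3% in HSA-LR gastrocnemius, and at 5.34%, 3.81% and 1.75% in treated mice, a spread that ran from midway down to the lowest WT value. It fell by 1.48 in gastrocnemius and 1.47 in quadriceps (adjusted P = 4.4e-07 and 9.32e-05, edgeR). The 4 members of Vamp1, a SNARE protein of synaptic vesicles, summed to 9.43% ± 2.02 in WT, 28.2% ± 3.58 in HSA-LR and 10.8% ± 2.29 in treated gastrocnemius, and to 9.20% ± 1.39, 26.9% ± 3.77 and 11.7% ± 0.863 in quadriceps (SD, n = 3). Reads in Vamp1 bin 14 were 199, 198 and 91 in WT and 140, 186 and 117 in HSA-LR gastrocnemius. Its usage thus rose without a rise in its own reads, and the part of gene level was not tested. Tmod3, which caps actin filaments, went from 0.426% to 3.32% and to 1.04% in gastrocnemius at bin 13, with each treated mouse above each WT mouse in that muscle (0.834% to 1.31% against 0.322% to 0.578%), although the difference from WT did not pass the test (adjusted P = 0.467, edgeR). Mier1, a transcriptional regulator, had a return of 82.7% for its first-exon bin 39 in gastrocnemius (adjusted P = 0.000522, edgeR). Ighm, the heavy chain of immunoglobulin M and a product of B cells, had last-exon usage of 0.513% ± 0.156 in WT, 3.36% ± 0.329 in HSA-LR and 0.683% ± 0.0989 in treated gastrocnemius (SD, n = 3), and B-cell content was not tested. Tuba4a, an alpha tubulin, had usage of its last-exon bin 2, which overlaps Stk16 on the other strand, of 2.25% ± 0.0949 in WT, 4.51% ± 0.0743 in HSA-LR and 2.42% ± 0.0248 in treated quadriceps (SD, n = 3; adjusted P = 0.0458, edgeR), and the call was lost (adjusted P of 0.16 to 0.601, edgeR) when either of HSA-LR mice 1 and 2 or treated mice 1 and 2 was left out. The first-exon bins Acyp1 bin 7 and Gpank1 bin 5 had returns of 91.1% to 97.6% in both muscles, and the Gpank1 bin overlaps Csnk2b on the other strand.

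Several members were close to absent in WT mice. Scamp2 bin 9, in a secretory carrier protein, had 2, 3 and 2 reads in WT, 43, 48 and 32 in HSA-LR and 0, 5 and 2 in treated gastrocnemius, so a treated level below WT could not be detected at this depth. Its fall of 3.97 on the log2 scale passed the test (adjusted P = 1.09e-11, edgeR). Kbtbd12 bin 7, a last exon, had 7, 6 and 3 reads in WT, 70, 95 and 61 in HSA-LR and 10, 7 and 8 in treated gastrocnemius (log2 -4.02, adjusted P = 4.47e-22, edgeR). Coq8a bin 33, in a gene of coenzyme Q synthesis, was used at 0.00236% ± 0.000512 in WT, 0.104% ± 0.0284 in HSA-LR and 0.00480% ± 0.00441 in treated quadriceps (SD, n = 3; log2 -4.24, adjusted P = 5.26e-21, edgeR). For 2 members, Kmt2c bin 39 and Mllt3 bin 14, no read was counted in any of the 3 WT quadriceps libraries.

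Across the 298 members, all of which passed the filter on low counts, 145 in 96 genes were lower in treated than in HSA-LR gastrocnemius and none was higher. Over all 172719 bins tested the share called lower was 0.195%. In quadriceps 93 members in 69 genes were lower and none higher, with 0.0897% of 172858 bins called lower. At an unadjusted P under 0.05 (edgeR), 230 and 202 members were lower and none was higher. The HSA-LR mice helped to choose the members, so a fall from their values is favoured by the choice, and this count is not independent support. Without treated mouse 1 the quadriceps count was 55 and without treated mouse 2 it was 57. Calls in both muscles were shared by 84 members of 65 genes, which is 57.9% of the gastrocnemius calls and 90.3% of the quadriceps calls, in muscles of the same mice. Every treated value lay below every HSA-LR value for 237 members in gastrocnemius and 218 in quadriceps, a pattern met by 12% and 6.86% of all bins with a mean HSA-LR count of at least 20. The median ratio of treated to HSA-LR usage was 0.456 in gastrocnemius and 0.484 in quadriceps, beside 0.972 and 1.004 over all such bins.

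The median return over members was 84.3% in gastrocnemius, with medians of 81.4%, 82.1% and 93.2% in the 3 treated mice, and 79.2% in quadriceps, with 76.1%, 75.2% and 83.3%. It was at least 80% for 165 members in gastrocnemius and 145 in quadriceps, and under 20% for 13 and 46. In a comparison added after the data had been seen, when 1 HSA-LR mouse was left out of the choice and put in the place of a treated mouse, its median return lay between -5.20% and 22.6%, while treated mice gave 78.2% to 86.0% for the same bins. On the log2 scale of usage the median returns were 75.3% and 67.3%. Across the members, return in 1 muscle ranked with return in the other (Spearman rho = 0.70 over 298 bins of the same mice, a description). The median return in gastrocnemius and quadriceps was 96.3% and 89.1% for whole internal exons, 97.4% and 92.4% for parts of internal exons, 95.2% and 87.0% for retained introns, 91.8% and 90.9% for last exons and 82.9% and 83.5% for first exons. Bins in every transcript that spans them returned by 58.3% and 68.8%. Of these 48 bins 23 lie in Kmt2c and 14 in Asph, so the value blends 2 genes of unlike course. Median returns were 49.3% and 66.7% over all Kmt2c members and 103% and 87.1% over all Asph members. The 86 members that could not be placed, 33 of them in Kmt2d, returned by 61.0% and 35.7%.

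**Figure D3:**
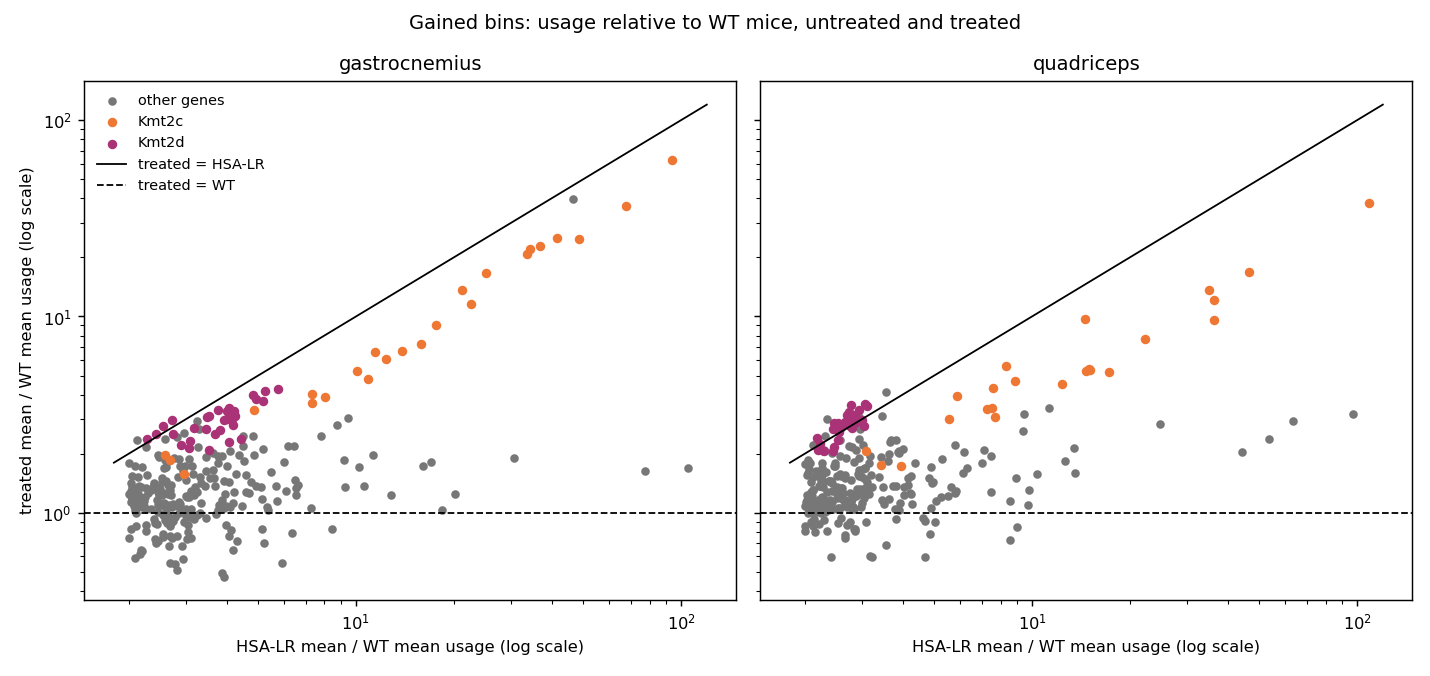
Mean treated usage over mean WT usage (y axis, log scale) against mean HSA-LR usage over mean WT usage (x axis, log scale) for each gained bin, by muscle, with Kmt2c and Kmt2d in colour. The dashed line marks equal treated and WT usage, with median treated over WT ratios of 1.36 in gastrocnemius and 1.47 in quadriceps, while Kmt2d lies along the line of equal treated and HSA-LR usage in quadriceps and mostly below it in gastrocnemius, and Kmt2c lies below it in both. Bins with a mean of 0 in WT mice are left out.

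Some members stayed above WT mice. In gastrocnemius 53 members in 8 genes were higher in treated than in WT mice, against 0.0504% of all bins tested, and in quadriceps 33 members in 7 genes, against 0.0243%. WT values also helped to choose the members, so a value above WT is favoured too. No member was called lower than WT mice in either muscle by edgeR, with 3 in gastrocnemius and 2 in quadriceps at an unadjusted P under 0.05. With limma voom in place of edgeR the counts were 29 and 15. The quadriceps count depended on single mice: it was 9 without WT mouse 1, 56 without WT mouse 2, 14 without WT mouse 3, 14 without treated mouse 1 and 17 without treated mouse 2. Every treated value lay above every WT value for 99 members in gastrocnemius and 130 in quadriceps, beside 3.52% and 6.47% of all bins with a mean HSA-LR count of at least 20. Kmt2c and Kmt2d, which hold 57 of the 298 members, gave 40 of the 53 calls and 23 of the 33. Without them, a comparison added after the data had been seen, 13 and 10 calls were left, and the median return was 91.2% and 86.4%.

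Kmt2c and Kmt2d are related histone methyltransferases that act at enhancers, and both genes lie on the minus strand, so that high bin numbers point to the 5′ end. In Kmt2c 24 of its 76 bins were gained, 21 of them in 1 unbroken run from bin 33 to bin 53, and the members together spanned chr5:25313256-25376027. Their summed usage in gastrocnemius was 2.11%, 1.53% and 1.83% in WT, 33.3%, 27.4% and 14.7% in HSA-LR and 12.2%, 11.3% and 18.4% in treated mice. HSA-LR mouse 3 was thus below treated mouse 3. In quadriceps it was 2.25% ± 0.832 in WT, 28.1% ± 4.21 in HSA-LR and 11.2% ± 1.99 in treated mice (SD, n = 3), with no overlap between the 3 groups. The 1757-base coding bin 34 was higher than in WT mice by 3.49 on the log2 scale in treated gastrocnemius and by 2.34 in treated quadriceps (adjusted P = 7.74e-16 and 3.12e-08, edgeR), and fell from HSA-LR quadriceps by 1.47 (adjusted P = 7.45e-05, edgeR). Bin 39, whose sequence is given above, had 2, 0 and 1 reads in WT, 118, 86 and 31 in HSA-LR and 26, 33 and 21 in treated gastrocnemius.

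In Kmt2d 33 of 64 bins were gained, between bins 22 and 63. Summed usage was 13.0%, 13.7% and 10.6% in WT, 42.0%, 39.4% and 38.8% in HSA-LR and 33.8%, 35.3% and 38.3% in treated gastrocnemius. In quadriceps it was 11.1%, 22.3% and 13.2% in WT, 36.6%, 42.2% and 40.3% in HSA-LR and 40.4%, 40.3% and 38.5% in treated mice, so that treated and HSA-LR mice overlapped. None of the 33 bins was called lower than HSA-LR mice in either muscle by edgeR (11 and 0 at an unadjusted P under 0.05), and 29 were called higher than WT mice in gastrocnemius and 16 in quadriceps. The median return was 31.6% and -11.0%. The level of the gene followed the same order, at 62.8 to 74.8 CPM in WT, 186 to 242 in HSA-LR and 135 to 181 in treated gastrocnemius, and Kmt2c stood at 27.0 to 34.4, 42.7 to 60.4 and 30.3 to 39 CPM, and the part of gene level in the usage values was not tested. Over 3841 genes, 5′ against 3′ coverage in quadriceps had log2 ratios of -0.38 to -0.20 in WT, -0.31 to -0.22 in HSA-LR and -0.27 to -0.17 in treated mice, and with it as a covariate the count of members above WT quadriceps was 13 in place of 33. The part of coverage in the values of these 2 genes was not tested.

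**Figure D4:**
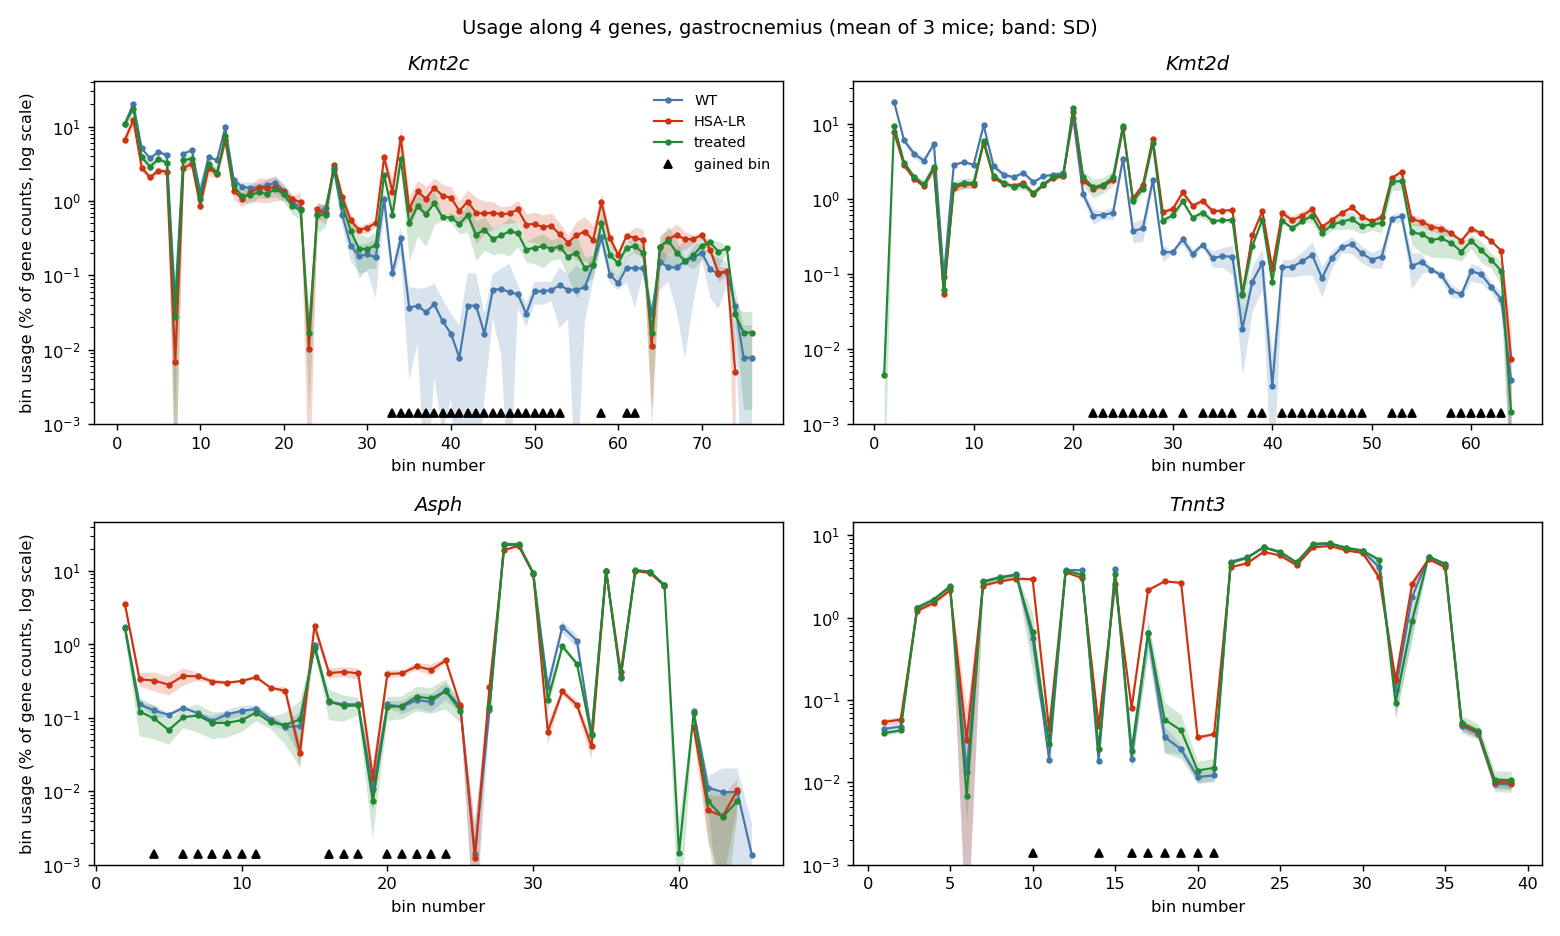
Mean usage of every bin (y axis, % of gene counts, log scale; band is the SD of 3 mice) by bin number (x axis) along Kmt2c, Kmt2d, Asph and Tnnt3 in gastrocnemius, with triangles under gained bins; bins at 0 are not drawn. Treated mice follow WT mice in Asph and Tnnt3, lie between the groups in Kmt2c and lie close to HSA-LR mice in Kmt2d.

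Asph showed the other course. Its locus encodes an aspartyl hydroxylase and, through alternative ends and starts, the short proteins junctin and junctate of the sarcoplasmic reticulum, and the gained bins 4 to 24 lie on the minus strand at chr4:9475390-9604629, towards the 3′ end that codes for the hydroxylase. The 15 members, 14 of them in every transcript that spans them, summed to 2.05%, 2.47% and 2.03% in WT, 5.64%, 6.62% and 5.58% in HSA-LR and 2.39%, 2.53% and 1.22% in treated gastrocnemius. All 15 were called lower than HSA-LR mice there, with returns of 93.4% to 116%. In quadriceps each treated value was again below each HSA-LR value for the 15 bins, and 2 passed the test, with summed usage of 2.497% ± 0.203, 5.73% ± 1.53 and 2.87% ± 0.660 (SD, n = 3). Neighbouring bins share reads and are not separate findings. Mib1, a ubiquitin ligase of Notch signalling, had 12 members whose sum was 5.69% ± 4.16 in WT, 21.7% ± 0.746 in HSA-LR and 9.92% ± 3.43 in treated gastrocnemius (SD, n = 3), with none called against HSA-LR or WT mice by edgeR (5 lower than HSA-LR gastrocnemius and 5 higher than WT gastrocnemius at an unadjusted P under 0.05), and its gene level ran from 27.0 to 94.6 CPM among WT mice and from 17.7 to 18.3 CPM in HSA-LR mice. WT mouse 3 had both the lowest Mib1 level and, at 10.5%, the highest usage of the 3 WT mice. Reads in Mib1 bin 10 were 44, 40 and 41 in WT and 35, 41 and 46 in HSA-LR gastrocnemius. Those in bin 18 were 28, 33 and 26 in WT and 48, 51 and 37 in HSA-LR gastrocnemius. The usage of bin 10 thus rose without a clear rise in its own reads, while reads in bin 18 did rise. The part of gene level in the Mib1 values was not tested.

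Nr3c1 and single bins of other genes were also among the members above WT mice. Nr3c1, the glucocorticoid receptor, had 5 members, and bin 13, the one with the largest gain, was at 6.14%, 7.09% and 5.11% in WT, 15.2%, 16.3% and 13.9% in HSA-LR and 11.2%, 11.4% and 12.9% in treated gastrocnemius, between the other groups without overlap. All 5 were called above WT gastrocnemius and none above WT quadriceps, and without WT mouse 3 bin 13 had adjusted P = 0.114 (edgeR). In quadriceps every treated value still exceeded every WT value for all 5 bins, with returns of 16.6% to 43.8%. Mllt3 bin 14, a last exon of a transcription elongation factor's gene, had 1, 0 and 1 reads in WT, 36, 39 and 40 in HSA-LR and 28, 19 and 19 in treated gastrocnemius, and no reads in WT, 23 in each HSA-LR and 14 to 16 in treated quadriceps, with returns of 15.6% and 1.74%. In gastrocnemius 1 bin each of Ampd1 and Klhdc1, named here after their values were seen, was also above WT mice (adjusted P = 0.0355 and 0.0341, edgeR). The lowest mean return, -21.4% and -47.7%, was that of Glb1l2 bin 6. It had 57, 72 and 7 reads in treated gastrocnemius and 16 to 35 per library in HSA-LR gastrocnemius. The returns of the 3 treated mice in gastrocnemius were -86.3%, -104% and 126%, so the value of -21.4% describes none of them.

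At the other end, mean returns were highest for Map3k4 bin 11, Camk2d bin 59, Mknk2 bin 19 and Pde4d bin 28, which went below the WT mean. Map3k4, a stress kinase, was at 0.622%, 0.877% and 0.728% in WT, 2.03%, 1.81% and 2.42% in HSA-LR and 0.586%, 0.405% and 0.143% in treated gastrocnemius, below every WT mouse, with a return of 127% and 118% in the 2 muscles. The difference from WT mice did not pass the test (log2 -0.91, adjusted P = 1, edgeR). Treated means were below WT means for 61 members in gastrocnemius and 33 in quadriceps, and none was called lower.

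**Figure D5:**
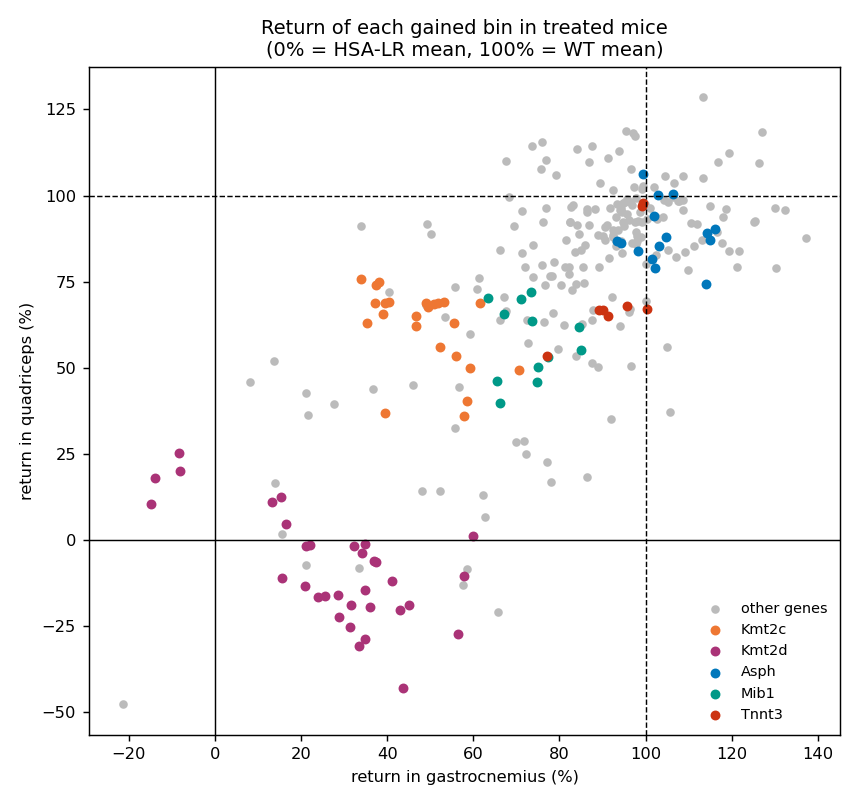
Return of each gained bin in treated quadriceps (y axis, %) against treated gastrocnemius (x axis, %), where 0% is the HSA-LR mean and 100% the WT mean, with 5 genes in colour. Median returns were 84.3% in gastrocnemius and 79.2% in quadriceps, with Kmt2c bins lower (49.3% and 66.7%) and Kmt2d bins lower in quadriceps (median of -11.0%) than in gastrocnemius (31.6%).

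Return was higher in gastrocnemius than in quadriceps for 195 of the 298 members. The change from HSA-LR to treated mice was tested between muscles with each mouse as a block. Of the members 1 was called, against 0.0681% of all 180522 bins tested, and 33 had an unadjusted P under 0.05. The called bin was Lrch3 bin 37, a 248-base exon with coding and UTR sequence on chromosome 16, with usage of 0.969%, 1.27% and 0.892% in HSA-LR and 0.180%, 0.206% and 0.235% in treated gastrocnemius, and of 0.597%, 0.961% and 0.544% in HSA-LR and 0.671%, 0.580% and 0.449% in treated quadriceps. It rests on 4 to 55 reads per library, and the difference of 2.04 on the log2 scale had adjusted P = 0.0857 (edgeR). Without the block no member was called, and leaving out single mice gave 0 to 2 calls.

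Other lists covered muscle and regulatory genes. Of 53 eligible genes of the sarcomere and Z-disc 7 held a gained bin (13.2%), of 32 of calcium handling 6 (18.8%), of 24 ion channel genes 4 (16.7%), of 50 cytoskeletal genes 6 (12%), of 42 kinases and phosphatases 3 (7.14%) and of 50 RNA-binding proteins 3 (6%), against 2.03% of all eligible genes. The 23 members in calcium handling genes, 15 of them in Asph, were all called lower than HSA-LR mice in gastrocnemius, and 6 were in quadriceps. The 9 members in cytoskeletal genes (Ank3, Clasp1, Map4, Tln1, Sorbs2 and Dnm2) returned by a median of 97.9% and 89.4%. Of 39 transcription and chromatin genes 5 held 60 members (12.8% of the genes), 57 of them in Kmt2c and Kmt2d, with a median return of 37.8% and 15.2%, and 40 and 23 were above WT mice in the 2 muscles. Lists share genes, so these counts overlap. They too were chosen with earlier results known and set against unmatched genes, so their shares are descriptions. Myh2, a fast myosin heavy chain, had the largest gain of any member in quadriceps at bin 26, from 5.17% to 6.37% in WT to 12.6%, 26.1% and 31.2% in HSA-LR and 5.22% to 7.90% in treated mice, but did not pass the test (adjusted P = 0.761, edgeR), and its exons share sequence with other myosin heavy chain genes. The reads of Myh2 bin 26 overlapped, at 9379, 7581 and 14676 in WT and 8182, 14253 and 14780 in HSA-LR quadriceps. Its gain is thus one of share, and the part of gene level was not tested.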

How the data were processed

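RNA of 2 muscles from 9 mice (18 libraries) was sequenced after a stranded, poly(A)-selected preparation. Per the submitters' processing notes, reads were aligned with HISAT after CASAVA to GRCm38 and counted with featureCounts 1.5.0, and the authors deposited whole-number counts per exon bin, without normalization, so that 1 read pair can add to more than 1 bin of a gene. Entries naming no gene (2.82% to 4.14% of counts) were left out. The members and gene lists were chosen with earlier results of these data known.

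Usage was computed with pandas 2.3.3 and numpy 2.4.6 (Python 3.11.15). Treated mice were compared with HSA-LR and with WT mice by the quasi-likelihood fit and diffSpliceDGE of edgeR 4.0.16 (R 4.3.3) on the 9 libraries of a muscle, which tests each bin against the other bins of its gene, with Benjamini-Hochberg adjustment over all bins tested and a threshold of 0.1. The difference between muscles was tested with the mouse as a block: the labels' numbers and the animal numbers in the files pair the muscles. The correlation of deviations over 84382 bins was -0.02 to 0.235 for the 9 pairs, which does not by itself show the pairing. The scripts were tested on simulated data. Alternatives used limma 3.58.1 (voom), DESeq2 1.42.0, other filters and each mouse left out. P-values measure the spread between 3 mice a group. Members were named by a fixed rule: the 15 genes of largest gain and 10 of largest ratio in the weaker muscle, genes the study names or known MBNL targets, the 6 lowest and 4 highest mean returns, the 4 genes with most members, the 3 bins on each side of the threshold, and bins called between muscles. Bins were placed with GENCODE M21 where the gene version matched. Reads of near-identical exons (Myh2, Neb) are uncertain, and intron sequence was not analysed here. The bins of 1 gene are counted but not reported by name here.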

Additional observations from a re-analysis of the deposited data

Results flagged for a closer look

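Lrch3 bin 37 stood out because its change with treatment differed between the muscles. The change from HSA-LR to treated mice was 2.04 higher on the log2 scale in quadriceps than in gastrocnemius (adjusted P = 0.0857, edgeR, with the mouse as a block), with returns of 106% in gastrocnemius and 37.1% in quadriceps. The highest HSA-LR value in quadriceps, 0.961%, was that of mouse 2, and the other HSA-LR and treated quadriceps values lay between 0.449% and 0.671%.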

How the results depend on the processing

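Alternatives changed counts more than directions. Over 129 values of single members and their 2064 alternatives, 1822 alternatives kept direction and side of the threshold, 193 lost the call, 36 gained it and 13 changed sign; of 89 called values, 32 lost the call without 1 mouse. In treated against WT gastrocnemius voom called 29 members. In quadriceps, the count above WT was 17 with 2 groups in the fit, 13 with coverage as a covariate and 15 with voom, and 9 to 56 with a mouse left out, while the count below HSA-LR was 55 to 110 with a mouse left out. The cause was not tested. Across arms the same replicate number names different mice. Correlations of deviations by number across arms were -0.163 to 0.255 in gastrocnemius and -0.111 to 0.369 in quadriceps. Those between the 2 muscles of 1 mouse, -0.02 to 0.235, lay within these ranges, so the correlations do not tell pairs apart. With the replicate block the counts were 136 and 115 below HSA-LR and 52 and 41 above WT in gastrocnemius and quadriceps. For the difference between muscles, no block gave 0 calls and leaving out mice 0 to 2. Median return on the log2 scale was 75.3% and 67.3%, it was 76.8% to 86.9% and 66.6% to 83.1% with a mouse left out, and in quadriceps 87.2% with 1 bin per gene and 52.9% with bins chosen in the other muscle alone. The rule gave 628 bins at a ratio of 1.5, 98 at a ratio of 3, 182 at a count of 50, and 267 to 410 with a mouse left out. The changes of sign, in treated against HSA-LR mice on the log2 scale, were at most 0.30 in size. With coverage as a covariate they were -0.107, 0.0984 and -0.172 for Kmt2d bins 25, 52 and 24 in gastrocnemius, and -0.0829 and -0.301 for Kmt2d bins 53 and 52 and 0.0343 for Mllt3 bin 14 in quadriceps. With a mouse left out, the ranges were -0.0668 to 0.179 for Kmt2d bin 25 and -0.0868 to 0.216 for Kmt2d bin 24 in gastrocnemius, both lowest without treated mouse 3. In quadriceps they were -0.0989 to 0.191 for Kmt2d bin 52, -0.155 to 0.0227 for Kmt2d bin 24, -0.481 to 0.0048 for Lrch3 bin 37 and -0.140 to 0.106 for Mllt3 bin 14.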
